A study of Mus musculus with 8 samples.

Results

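The transcripts of the mitochondrial genome were examined in bulk RNA-seq of the mouse retina with and without *Mettl3*. They were taken as all genes of the count table whose name begins with mt-, which gave 37 of 54532 genes. These were 13 protein-coding genes, 2 rRNA genes and 22 tRNA genes, the whole gene content of the mouse mitochondrial DNA. METTL3 is the catalytic subunit of the complex that writes N6-methyladenosine into mRNA. The 4 *Mettl3*-CKO samples came from mice with *Six3-Cre* and floxed *Mettl3* on both alleles, where Cre is driven in retinal progenitors. The 4 control samples were retinas of control pups, whose alleles are not given in more detail. The study names littermate controls in other experiments, but its methods for the bulk RNA-seq do not say whether these controls were littermates. The sample labels and the study's results place both groups at postnatal day 7, while its methods give day 6. By immunofluorescence the study reports efficient loss of METTL3 protein in the central retina of newborn mutants. It also reports lower N6-methyladenosine on several candidate transcripts, measured by qPCR after immunoprecipitation of modified RNA. Cells that do not descend from progenitors with Cre, such as those of vessels and blood, would keep the gene.

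Mitochondrial DNA is a small circle whose strands are both transcribed into long precursors. The tRNA genes lie between most of the mRNA and rRNA genes, and cutting them out releases the others. The 13 proteins are subunits of respiratory complexes I, III, IV and V, and the rRNAs form the core of the mitochondrial ribosome. Every other protein of these complexes, and every factor that copies, transcribes, cuts, modifies and translates the mitochondrial genome, comes from nuclear genes. Nuclear chromosomes also carry old insertions of mitochondrial DNA, and reads from a young insertion cannot be told apart from those of its mitochondrial source. Photoreceptors are rich in mitochondria, and the retina is among the tissues that use most oxygen.

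The libraries held 16227095 to 20281517 counts, so that 3 counts correspond to 0.148 to 0.185 CPM (counts scaled to a library of 1000000). *Mettl3* itself was at 33.8, 32.5, 29.4 and 29.3 CPM in controls 1 to 4 and at 21.1, 29.6, 21.3 and 24.3 CPM in *Mettl3*-CKO 1 to 4, a log2 fold change of -0.38 (SE 0.12, edgeR adjusted p = 0.0602, DESeq2 adjusted p = 0.032). *Mettl3* was thus not called by edgeR, and *Mettl3*-CKO 2 lay within the control range. Counts over the whole gene do not measure METTL3 protein, whose loss the study reports. The retinal markers were present. Summed rod marker levels were 3921 to 5866 CPM in control and 2378 to 4055 CPM in *Mettl3*-CKO retinas, with 6 of 12 markers called lower and none higher. The 10 progenitor and cell cycle markers summed to 1474 to 1912 CPM in control and 2020 to 2714 CPM in *Mettl3*-CKO retinas, with 4 called higher and none lower. Over all tested genes edgeR called 4.05% lower and 6.49% higher. Control 4 stood apart by 13 lens markers, which summed to 3346 CPM against 8.79 to 73.7 CPM in the other libraries. Control 1 stood apart by its mitochondrial transcripts, as described next, and by the largest sum of the rod markers. In whole retinas, fewer cells of a type and less RNA per cell cannot be told apart.

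The share of the library that came from the mitochondrial genome overlapped between the groups. Its 37 genes took 2.38%, 1.76%, 1.70% and 1.69% of all counts in controls 1 to 4 and 2.10%, 1.77%, 2.26% and 1.87% in *Mettl3*-CKO 1 to 4. The means were 1.88% ± 0.336 and 2.0% ± 0.222 (SD, n = 4 each), the control range enclosed the *Mettl3*-CKO range, and control 1 was the highest of all 8 libraries. Without control 1 the control mean was 1.71% ± 0.0366 (SD, n = 3), and the 4 *Mettl3*-CKO libraries then all lay above the controls, by 1.17-fold on average against 1.06-fold with it. A list of 15 nuclear genes of general mitochondrial mass, such as outer membrane and matrix proteins, showed the same library on top: it summed to 3339, 2790, 2653 and 2614 CPM in controls 1 to 4 and to 3018, 2702, 3075 and 2898 CPM in *Mettl3*-CKO 1 to 4. The part of mitochondrial mass or of rod content in the share of control 1 was not tested.

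**Figure D1:**
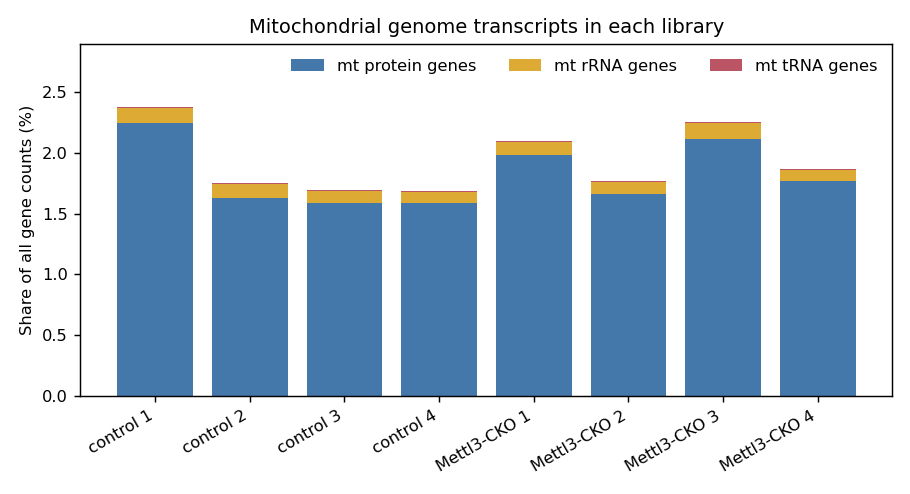
Share of all gene counts in each library (y axis, percent) taken by the mitochondrial protein, rRNA and tRNA genes, stacked, with 1 bar per library. Control 1 reaches 2.38% and the other controls 1.69% to 1.76%, while the *Mettl3*-CKO libraries lie between 1.77% and 2.26%.

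Protein-coding genes held 92.8% to 95% of the mitochondrial counts, the rRNA genes 4.50% to 6.54% and the tRNA genes 0.405% to 0.652%. *mt-Co1*, the catalytic core subunit of complex IV, alone held 35.3% to 40.7% and ranked 1 among all genes of the table by its mean count. *mt-Nd1* ranked 4 and *mt-Cytb* 5. The 9 genes with over 2000 counts in every sample held 98.5% to 99.1% of the mitochondrial counts.

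Levels of different genes were compared per length, as TPM (counts divided by gene length and scaled to the same total in each library), and fell into separate tiers. *mt-Co1* led at 17519 ± 3372 TPM in control retinas (SD, n = 4), followed by *mt-Nd1* at 11243 ± 1480 and *mt-Cytb* at 9553 ± 1233 TPM. The ranges of *mt-Nd1* and *mt-Cytb* overlapped in control retinas, at 10413 to 13461 and 8684 to 11375 TPM. *mt-Nd2* stood at 4377 ± 552 TPM, *mt-Nd5* at 3575 ± 536, *mt-Nd6* at 2929 ± 342 and *mt-Nd4* at 2820 ± 356 TPM, and within these 4 each neighbour in the order overlapped the next. These 7 genes lay between 2539 and 22546 TPM over all 8 libraries, whereas the other 6 protein genes, which follow each other on the circle from *mt-Co2* to *mt-Nd4l*, lay between 10.9 and 521 TPM. In control retinas *mt-Nd3*, a complex I subunit, was at 326 ± 37.4 TPM, *mt-Co2* at 227 ± 32.1, *mt-Atp6* at 166 ± 67.9, *mt-Co3* at 121 ± 12.1, *mt-Nd4l* at 79.0 ± 18.2 and *mt-Atp8* at 22.2 ± 7.98 TPM.

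The 6 low genes lay on the stretch of the mitochondrial genome that has a near-identical nuclear copy on chromosome 1. Transcripts of all genes in GENCODE vM21 (GRCm38) were searched for copies of the mitochondrial genes. *mt-Co2*, *mt-Atp6*, *mt-Co3* and *mt-Nd4l* matched the pseudogenes *Gm28661*, *Gm10925*, *Gm28437* and *Gm10222* at 100% identity over 681, 678, 783 and 294 bases. *mt-Nd3* matched *Gm28438* with 1 mismatch in 345 bases, T3C, counted from 1 at the first base of *mt-Nd3*. The last gene of the stretch, *mt-Nd4*, was identical to *Gm28439* over 876 of its 1378 bases and had no such copy for the rest. *mt-Atp8* had no near-identical annotated copy beyond its overlap with *mt-Atp6*, although it lies between 2 copied genes. Of all windows of 100 bases, 97.6% to 99.9% had an exact copy in the 5 genes from *mt-Co2* to *mt-Nd4l* other than *mt-Atp8*, against 60.8% in *mt-Nd4*, 30.8% in *mt-Co1*, 3.19% in *mt-Nd2* and 0% in *mt-Nd1*, *mt-Nd5*, *mt-Nd6* and *mt-Cytb*. Only annotated transcripts were searched, not the genome sequence.

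The first 60 aligned bases of 4 genes and their copies are shown as examples. Over the whole alignments, *mt-Nd3* differed from its copy at 1 of 345 bases and *mt-Nd2* at 17 of 510, although each differs at 1 base of the stretch printed here. All are written 5′ to 3′ on the strand of the gene, from the GENCODE vM21 transcripts on GRCm38, and capitals mark the bases at which a gene and its copy differ. *mt-Co2* (chrM:7013-7072, plus strand) and *Gm28661* (chr1:24615506-24615565, minus strand) are shown for a low gene with no difference, and *mt-Nd3* (chrM:9459-9518, plus strand) and *Gm28438* (chr1:24613060-24613119, minus strand) for the only mismatch of their pair. *mt-Nd2* (chrM:4442-4501, plus strand) and *Gm13339* (chr2:22590474-22590533, minus strand), 96.7% identical over 510 bases, and *mt-Cytb* (chrM:14146-14205, plus strand) and *Gm11410* (chr4:80003990-80004049, plus strand), 92.9% identical, are shown for high genes with less similar copies.
mt-Co2: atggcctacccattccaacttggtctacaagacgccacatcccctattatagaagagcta
Gm28661: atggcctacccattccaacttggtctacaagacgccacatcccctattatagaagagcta
mt-Nd3: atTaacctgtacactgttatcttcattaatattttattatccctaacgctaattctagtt
Gm28438: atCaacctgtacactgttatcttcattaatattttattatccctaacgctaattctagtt
mt-Nd2: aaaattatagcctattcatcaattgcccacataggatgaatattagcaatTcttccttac
Gm13339: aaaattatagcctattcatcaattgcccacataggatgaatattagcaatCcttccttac
mt-Cytb: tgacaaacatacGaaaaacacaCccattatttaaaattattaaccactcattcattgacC
Gm11410: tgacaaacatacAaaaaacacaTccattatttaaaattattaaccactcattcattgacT

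The nuclear copies themselves collected reads, in numbers that differed from gene to gene. *Gm28661* held 36.5 to 57.7 counts per 100 counts of *mt-Co2*, *Gm10925* 52.1 to 141 per 100 of *mt-Atp6*, *Gm28437* 45.5 to 69.4 per 100 of *mt-Co3*, *Gm10222* 24.4 to 70.6 per 100 of *mt-Nd4l* and *Gm28438* 9.24 to 13.1 per 100 of *mt-Nd3*. The share was under 1 per 100 for *mt-Nd4* (0.659 to 0.859), *mt-Co1* (0.0249 to 0.0537 for *Gm13340*) and *mt-Nd2* (0.00537 to 0.0341). The counts of the 5 copied genes are therefore uncertain, since reads of the gene and its copy cannot be told apart. The same holds for the copied parts of *mt-Nd4* and *mt-Co1*, with 60.8% and 30.8% of windows of 100 bases copied exactly. How reads with several best positions were counted is not given in the sources used here. Few counts on a copy therefore do not show how many such reads its gene lost. The part of such reads in the low levels was not tested.

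**Figure D2:**
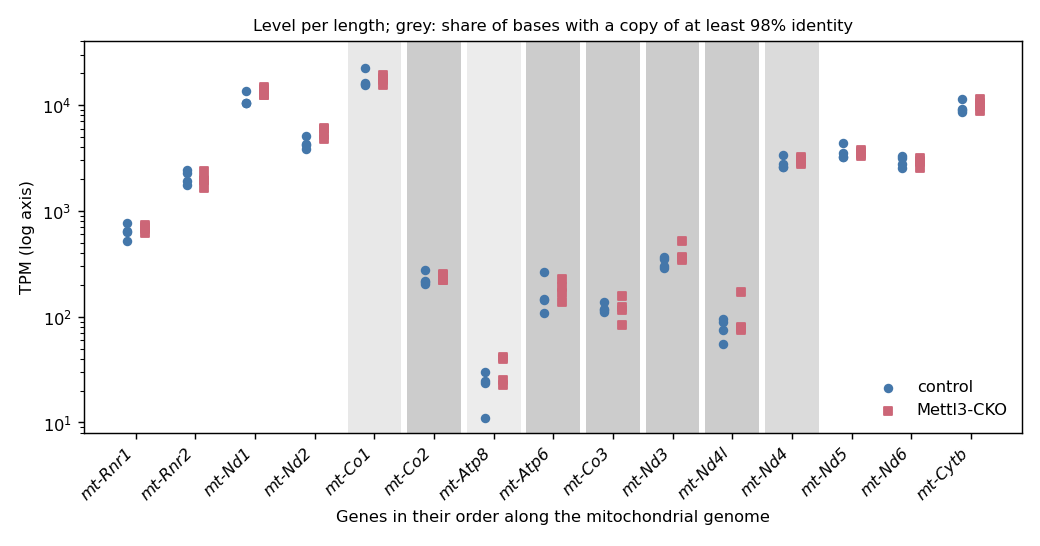
Level per length (y axis, TPM, log axis) of the 2 rRNA and 13 protein genes in their order along the mitochondrial genome, with 1 point per library (blue circles control, red squares *Mettl3*-CKO). The grey shade deepens with the share of a gene's bases that have an annotated copy of at least 98% identity: it is 99.0% to 99.9% in 5 of the 6 genes between 10.9 and 521 TPM.

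Of the 37 genes, 28 had enough counts to be tested (13 protein, 2 rRNA and 13 tRNA genes), within a fit of 17998 genes. At an adjusted p under 0.05, edgeR called 0 of the 28 higher and 0 lower, where it called 10.5% of all tested genes, 6.49% higher and 4.05% lower. DESeq2 called 1, *mt-Te*, against 14.2% of all genes (8.38% higher). At an unadjusted p under 0.05, 4 of the 28 remained (*mt-Nd2*, *mt-Nd3*, *mt-Te* and *mt-Tn*), against 24.6% of all genes. The median log2 fold change of the 28 genes was 0.06, and -0.01 over all tested genes, with 17 of the 28 above 0. In none of the 28 did the groups separate on CPM scaled by edgeR's trimmed mean of M values (TMM), where 17.4% of all genes did, 9.77% with *Mettl3*-CKO higher. Standard errors ran from 0.11 to 0.60 on the log2 scale, so that for the less abundant genes changes of moderate size were not detectable.

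Complex I takes electrons from NADH and holds 7 of the 13 proteins, and its first 2 genes on the circle had the largest differences among the well-counted genes. *mt-Nd1* (chrM:2751-3707, plus strand), a subunit of the membrane arm next to the quinone site, was at 3709, 2612, 2659 and 2672 CPM in controls 1 to 4 and at 3713, 3130, 3966 and 3131 CPM in *Mettl3*-CKO 1 to 4. All 4 *Mettl3*-CKO libraries lay above controls 2 to 4, and control 1 lay among them. The means were 2913 ± 532 and 3485 ± 423 CPM (SD, n = 4 each), a log2 fold change of 0.26 (SE 0.13, adjusted p = 0.244).

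*mt-Nd2* (chrM:3914-4951, plus strand), a membrane arm subunit, was at 1541, 1141, 1170 and 1064 CPM in controls 1 to 4 and at 1669, 1429, 1763 and 1306 CPM in *Mettl3*-CKO 1 to 4. Again the only overlap came from control 1. The means were 1229 ± 213 and 1542 ± 211 CPM, a log2 fold change of 0.33 (SE 0.13, adjusted p = 0.14). When control 1 was left out, both genes passed the test, *mt-Nd1* with 0.40 (adjusted p = 0.011) and *mt-Nd2* with 0.46 (adjusted p = 0.00737), in a fit that called 17.4% of all genes and 10.3% higher. Over the fits that left out 1 library each, the log2 fold change was 0.20 to 0.40 for *mt-Nd1* and 0.26 to 0.46 for *mt-Nd2*, and each passed only in the fit without control 1.

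The other complex I genes did not pass the test with or without control 1. *mt-Nd4* (log2 fold change 0.08, SE 0.12, adjusted p = 0.727) and *mt-Nd5* (-0.03, SE 0.13, adjusted p = 0.93) are proton-pumping subunits. *mt-Nd6*, the only protein gene on the other strand, was at 491, 374, 346 and 432 CPM in controls 1 to 4 and 444, 409, 420 and 347 CPM in *Mettl3*-CKO 1 to 4 (-0.02, SE 0.12, adjusted p = 0.941). The signs of *mt-Nd5* and *mt-Nd6* changed in 2 and 3 of 15 alternative settings. Whether counting used strand is not given in the sources used here, so that reads of *mt-Nd6* and of the opposite precursor cannot be told apart. *mt-Nd3* was at 28.9, 27.4, 33.2 and 32.7 CPM in controls and at 33.0, 33.2, 50.8 and 34.0 CPM in *Mettl3*-CKO retinas (0.31, SE 0.14, adjusted p = 0.199), with *Mettl3*-CKO 3 far above the rest. *mt-Nd4l* had the same library on top, 14.1 CPM against 6.03 to 6.20 in the other *Mettl3*-CKO libraries (0.38, SE 0.27, adjusted p = 0.444), and its sign changed in 1 of 15 settings. With the counts of their nuclear copies added, the log2 fold changes of *mt-Nd3* and *mt-Nd4l* were 0.33 and 0.40, and no mitochondrial gene was called.

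In complex III, which passes electrons from quinol to cytochrome c, *mt-Cytb* is the single mitochondrial subunit. It was at 3747, 2686, 2764 and 2636 CPM in controls 1 to 4 and at 3263, 2640, 3629 and 2972 CPM in *Mettl3*-CKO 1 to 4 (log2 fold change 0.08, SE 0.13, adjusted p = 0.77). Control 1 was again the highest library, and the groups overlapped throughout.

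Complex IV, the oxidase that reduces oxygen, has 3 mitochondrial subunits. *mt-Co1* was at 10030, 6612, 6406 and 6320 CPM in controls 1 to 4 and at 7548, 6260, 8265 and 7047 CPM in *Mettl3*-CKO 1 to 4. Its log2 fold change was -0.01 (SE 0.15, adjusted p = 0.972), and its sign changed in 5 of 15 alternative settings, to 0.18 without control 1. *mt-Co2* (0.07, SE 0.11, adjusted p = 0.768) and *mt-Co3* (-0.01, SE 0.17, adjusted p = 0.976) are both among the genes with an identical nuclear copy, and the sign of *mt-Co3* changed in 3 of 15 settings. In the ATP synthase, complex V, *mt-Atp6* gave 0.14 (SE 0.22, adjusted p = 0.747). *mt-Atp8*, whose last bases overlap *mt-Atp6*, held only 12 to 44 counts per library and gave 0.57 (SE 0.33, adjusted p = 0.308).

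**Figure D3:**
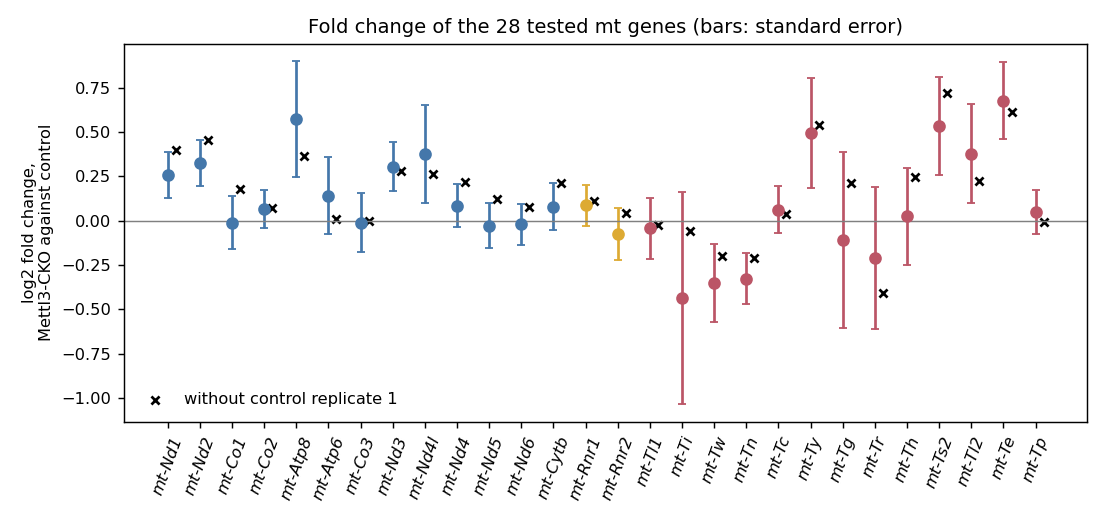
Log2 fold change of *Mettl3*-CKO against control retinas (y axis) with its standard error for the 28 tested mitochondrial genes, in genome order within protein (blue), rRNA (yellow) and tRNA (red) genes. Crosses give the value without control 1, which for *mt-Nd1* and *mt-Nd2* is 0.40 and 0.46 against 0.26 and 0.33 with all libraries.

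The balance among the mitochondrial mRNAs within a library does not depend on how much of the library they take. Each gene was therefore expressed as a share of the counts of the 13 protein genes. *mt-Nd1* took 16%, 16.1%, 16.7% and 16.9% in controls 1 to 4 and 18.8%, 18.8%, 18.5% and 17.8% in *Mettl3*-CKO 1 to 4. Every *Mettl3*-CKO library lay above every control, control 1 included, with means of 16.4% ± 0.445 and 18.5% ± 0.471 (SD, n = 4 each).

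*mt-Nd2* took 6.63%, 7.04%, 7.33% and 6.73% in controls 1 to 4 and 8.45%, 8.59%, 8.25% and 7.43% in *Mettl3*-CKO 1 to 4. Here too the groups did not overlap, with means of 6.93% ± 0.320 and 8.18% ± 0.520, and *Mettl3*-CKO 4 was the nearest to the controls. Of the 28 tested genes, *mt-Nd1* and *mt-Nd2* were the only ones higher without overlap per mitochondrial protein count, and *mt-Tn* was the only one lower. On the same scale 10.1% of all 17998 genes did not overlap, and 4.44% of all 17998 had *Mettl3*-CKO higher. The share of the 28 members without overlap was near that of all genes, so separation on this scale does not set the members apart. No p-value was computed for these shares.

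*mt-Co1* took the larger part of the pool in control retinas, 43.1%, 40.8%, 40.2% and 39.96% in controls 1 to 4 against 38.2%, 37.6%, 38.6% and 40.1% in *Mettl3*-CKO 1 to 4. The means were 41.0% ± 1.46 and 38.6% ± 1.06, and *Mettl3*-CKO 4 overlapped the lowest control. Without control 1 the control mean was 40.3%. The log2 ratio of *mt-Nd1* to *mt-Co1* counts was -1.32 ± 0.0864 in control and -1.06 ± 0.0756 in *Mettl3*-CKO retinas, and that of *mt-Nd2* to *mt-Co1* was -2.57 ± 0.104 and -2.24 ± 0.133. In both ratios the groups did not overlap, with or without control 1. Shares of a pool are not independent, since larger shares of *mt-Nd1* and *mt-Nd2* must be met by smaller shares of other genes. The share of *mt-Co1* and the ratios to it use the same counts again and are not separate results. Part of *mt-Co1* also has an exact nuclear copy, as given above.

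For the remaining genes the groups overlapped. *mt-Cytb* took 16.7% ± 0.497 and 16.6% ± 0.510, *mt-Nd4* 5.93% ± 0.309 and 5.93% ± 0.123, *mt-Nd5* 9.93% ± 0.341 and 9.23% ± 0.420 and *mt-Nd6* 2.33% ± 0.279 and 2.16% ± 0.238 in control and *Mettl3*-CKO retinas. For *mt-Nd5*, 3 of the 4 *Mettl3*-CKO libraries lay below every control, and *Mettl3*-CKO 2 lay among the controls. By complex, the complex I genes took 41.7% ± 1.02 of the pool in control and 44.2% ± 1.53 in *Mettl3*-CKO retinas, and the complex IV genes 41.4% ± 1.40 and 39.0% ± 1.07, with overlap in both. The complex IV share was nearly all *mt-Co1* (41.0% and 38.6%) and is not a separate result. On length-scaled counts, *mt-Nd1* took 21.3% ± 0.40 and 23.6% ± 0.479 and *mt-Nd2* 8.28% ± 0.360 and 9.64% ± 0.563, again without overlap. The marker lists whose sums separated the groups beside these shares were the summed progenitor and cell cycle markers, all *Mettl3*-CKO libraries higher, and the summed erythrocyte and pigment epithelium markers, all *Mettl3*-CKO libraries lower (14.0 to 26.3 against 4.28 to 7.25 CPM and 77.4 to 103 against 54.2 to 71.8 CPM). The sum of the endothelial markers overlapped, but edgeR called 6 of its 8 genes lower in *Mettl3*-CKO retinas, beside 4.05% of all tested genes. Without control 1 it called 5 of them lower, beside 1289 of all 18235 tested genes. Without *Mettl3*-CKO 1 it called 2 of them lower, beside 185 of all 18329. The part of these marker lists in the shares was not tested.

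**Figure D4:**
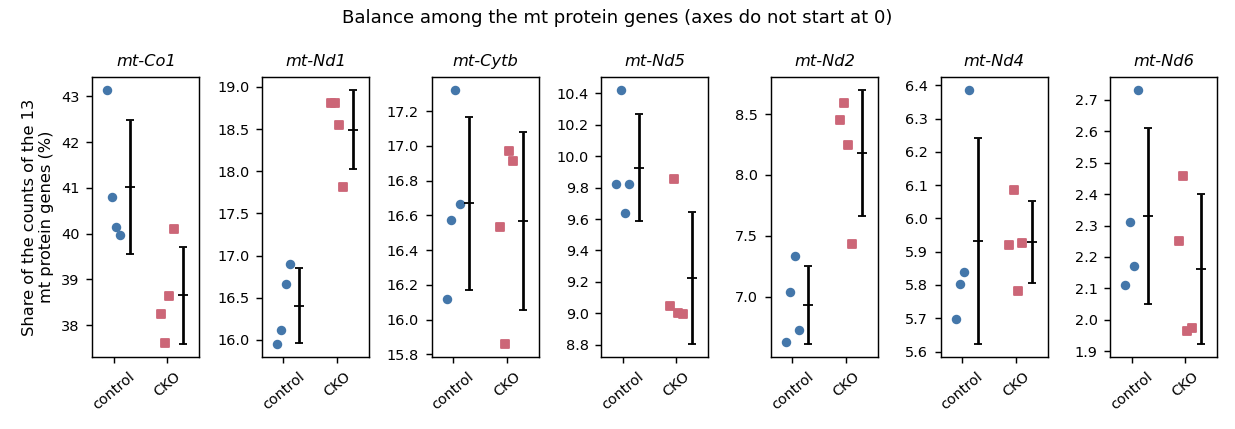
Share of the counts of the 13 mitochondrial protein genes (y axis, percent, not starting at 0) taken by each of the 7 abundant genes, with 1 point per library, and the mean and SD of each group of 4 beside it. *mt-Nd1* and *mt-Nd2* are the panels without overlap, at 16.4% against 18.5% and 6.93% against 8.18%.

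The 2 rRNAs form the small and large subunits of the mitochondrial ribosome. *mt-Rnr1*, the 12S rRNA, was at 175, 194, 131 and 165 CPM in controls 1 to 4 and at 184, 171, 196 and 155 CPM in *Mettl3*-CKO 1 to 4 (log2 fold change 0.09, SE 0.12, adjusted p = 0.709). *mt-Rnr2*, the 16S rRNA, was at 1105, 947, 800 and 736 CPM in controls and at 848, 814, 1067 and 679 CPM in *Mettl3*-CKO retinas (-0.07, SE 0.15, adjusted p = 0.816). The groups overlapped for both genes. The sign changed in 1 of 15 alternative settings for *mt-Rnr1* and in 2 for *mt-Rnr2*, the latter to 0.04 without control 1. Per length, *mt-Rnr2* stood at 2097 ± 312 TPM and *mt-Rnr1* at 646 ± 103 TPM in control retinas, both below the abundant mRNAs. In cells the rRNAs outnumber the mRNAs, and how these libraries were selected (for poly(A) tails or against rRNA) is not given in the sources used here.

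Relative to the mRNAs, there were 5.51, 7.04, 5.83 and 5.70 rRNA counts per 100 protein gene counts in controls 1 to 4 and 5.23, 5.92, 5.90 and 4.74 in *Mettl3*-CKO 1 to 4. The log2 ratio was -4.06 ± 0.159 and -4.20 ± 0.154 (SD, n = 4 each), a difference of -0.14, and the groups overlapped. *Rn7sk*, an abundant nuclear RNA without a poly(A) tail, was at 27.8, 37.4, 6.56 and 8.28 CPM in controls 1 to 4 and at 5.20, 7.83, 4.46 and 2.74 CPM in *Mettl3*-CKO retinas (log2 fold change -1.99, SE 0.50, adjusted p = 0.0242). Of 7 listed RNAs of this kind 2 were tested, and the other gave 0.05 and was not called. The sum of the list overlapped between the groups, at 7.54 to 38.3 CPM in control and 4.04 to 9.08 CPM in *Mettl3*-CKO retinas. Control 2 was the highest library in *Rn7sk* and in the rRNA balance and *Mettl3*-CKO 4 the lowest in both, but control 1 was second highest in *Rn7sk* and below the other controls in the balance. The part of such RNA in the rRNA balance was not tested.

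The 22 tRNA genes are 59 to 75 bases long, shorter than the 150 bases of a read, and whether the reads counted for them end within the tRNA or run into neighbouring sequence was not tested. No count was found in any library for *mt-Tf* and *mt-Td*, 16 had counts in every library, 5 had at least 100 in every library and 11 never exceeded 20. The 13 tested genes had log2 fold changes from -0.44 to 0.68, with 7 above 0. *mt-Tp* (tRNA-Pro) was the most abundant, at 382 to 642 counts, with a log2 fold change of 0.05 (SE 0.12, adjusted p = 0.858) whose sign changed in 3 of 15 alternative settings.

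*mt-Te*, the tRNA for glutamate, had the largest difference of all 28 genes. It lies on the minus strand at chrM:14071-14139, between *mt-Nd6* and *mt-Cytb*, and its sequence, from the GENCODE vM21 transcripts on GRCm38, is shown for its length.
mt-Te: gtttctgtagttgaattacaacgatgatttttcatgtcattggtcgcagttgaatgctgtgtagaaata

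It was at 3.48, 5.14, 4.62 and 2.72 CPM in controls 1 to 4 and at 7.52, 6.03, 7.22 and 4.79 CPM in *Mettl3*-CKO 1 to 4, from 45 to 136 counts. Only *Mettl3*-CKO 4 lay within the control range. The log2 fold change was 0.68 (SE 0.22), with an adjusted p of 0.0666 in edgeR and 0.03 in DESeq2, and from 0.03 to 0.207 over the alternatives. In the fits that left out 1 library each it was 0.53 to 0.82 and passed once, without *Mettl3*-CKO 4. Its neighbours *mt-Nd6* and *mt-Cytb* gave -0.02 and 0.08. Whether counting used strand is not given in the sources used here. Reads of minus strand tRNA genes such as *mt-Te*, *mt-Tn* and *mt-Tp* therefore cannot be told apart from those of the opposite precursor.

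*mt-Tn* (tRNA-Asn), also on the minus strand, went the other way. It was at 19.3, 16.4, 12.5 and 14.9 CPM in controls 1 to 4 and at 11.6, 12.7, 14.7 and 11.3 CPM in *Mettl3*-CKO 1 to 4 (log2 fold change -0.33, SE 0.15, adjusted p = 0.188). Per 10000 protein gene counts it gave 8.91 ± 1.04 in control and 6.70 ± 0.734 in *Mettl3*-CKO retinas without overlap. The other tested tRNA genes, none of which passed, were *mt-Tl2* (log2 fold change 0.38), *mt-Ts2* (0.53), *mt-Ty* (0.50), *mt-Tc* (0.06), *mt-Th* (0.02), *mt-Tl1* (-0.04), *mt-Tg* (-0.11), *mt-Tr* (-0.21), *mt-Tw* (-0.35) and *mt-Ti* (-0.44), with standard errors of 0.13 to 0.60. The signs of *mt-Tc*, *mt-Th*, *mt-Tl1*, *mt-Tg* and *mt-Tr* changed in 1 to 4 of 15 alternative settings. The untested genes *mt-Tv*, *mt-Tq*, *mt-Tm*, *mt-Ta*, *mt-Ts1*, *mt-Tk* and *mt-Tt* held at most 15 counts in any library.

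Nuclear genes for the mitochondrial ribosome and for RNA modification were among those edgeR called with all libraries. In 7 lists of nuclear genes that replicate, transcribe, process, modify and translate the mitochondrial genome, 22 of 162 tested genes were higher in *Mettl3*-CKO retinas and 0 lower, that is 13.6% higher, beside 6.49% of all tested genes. The median log2 fold change was 0.06, so that the typical member differed little. Without *Mettl3*-CKO 1 the number higher was 13, where 2.78% of all genes were called higher, and without control 1 it was 32, where 10.3% were.

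The ribosomal protein genes held most of the calls, with 9 of 49 large subunit genes (18.4%) and 6 of 32 small subunit genes (18.8%) higher, beside 6.49% of all tested genes. Without *Mettl3*-CKO 1 these numbers were 6 and 2, and without control 1 they were 15 and 8. *Mrpl43* was at 31.5, 32.9, 30.7 and 32.8 CPM in controls 1 to 4 and at 73.0, 64.0, 55.3 and 57.5 CPM in *Mettl3*-CKO 1 to 4 (log2 fold change 0.97, SE 0.10, adjusted p = 0.000227). *Mrps2* was at 39.4, 34.7, 35.6 and 35.1 CPM in controls and at 81.0, 59.4, 69.1 and 64.7 CPM in *Mettl3*-CKO retinas (0.92, SE 0.10, adjusted p = 0.000405). In both the groups lay far apart. *Mrpl14* (0.94), *Mrpl46* (0.82), *Mrpl16* (0.72), *Mrps34* (0.69), *Mrps12* (0.55) and *Mrps25* (0.47) were also higher, of which *Mrpl14*, *Mrpl46*, *Mrps34* and *Mrps25* overlap other genes on the chromosome, as do *Pus1*, *Mrm2*, *Mrm3*, *Pde12* and *Ndufb2* below and *Mettl3* above, so that their reads may in part be those of the neighbour. The summed large subunit genes, at 1859 ± 131 and 2062 ± 128 CPM, overlapped between the groups.

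Of the modification enzymes 4 of 28 were higher (14.3%, beside 6.49% of all tested genes). They were *Pus1*, a pseudouridine synthase of tRNA (log2 fold change 0.69, adjusted p = 0.00345), *Mrm3* and *Mrm2*, ribose methyltransferases of the 16S rRNA (0.58, adjusted p = 0.0112, and 0.52, adjusted p = 0.0493), and the tRNA methyltransferase *Trmt5* (0.49, adjusted p = 0.0193). Without control 1 the number higher was 3, where 10.3% of all genes were called higher. Without *Mettl3*-CKO 1 it was 2, where 2.78% were. Of 22 genes for RNA processing and stability 2 were higher (9.09%, near the 6.49% of all tested genes), *Pde12*, which removes poly(A) tails in mitochondria, at 36.9 to 44.9 CPM in control and 61.3 to 76.1 CPM in *Mettl3*-CKO retinas (0.72, adjusted p = 0.000983), and *Angel2* (0.51, adjusted p = 0.00691). *Lrpprc* (-0.00, adjusted p = 0.986) and *Slirp* (-0.09, adjusted p = 0.851), whose proteins together stabilise the mitochondrial mRNAs, were not called.

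Among 9 replication genes *Twnk*, the helicase of mitochondrial DNA, was the only one called. It was at 26.5, 28.1, 34.6 and 31.7 CPM in controls 1 to 4 and at 50.8, 46.2, 44.0 and 43.4 CPM in *Mettl3*-CKO 1 to 4 (0.61, SE 0.10, adjusted p = 0.00332). *Twnk* and *Mrpl43* lie head to head on chromosome 19, apart in the deposited coordinates (ending at 45006442 and starting at 45006558 for *Mrpl43* and *Twnk*) but overlapping in GENCODE vM21, so that their counts may not be separate. *Polg*, the DNA polymerase, gave -0.13 (adjusted p = 0.544). None of the 9 transcription genes was called, among them the RNA polymerase *Polrmt* (-0.22, adjusted p = 0.308) and the packaging and initiation factor *Tfam* (0.16, adjusted p = 0.263). None of 14 translation factors, 10 regulators of mitochondrial biogenesis, such as *Ppargc1a* (-0.16, adjusted p = 0.564), or 15 genes of mitochondrial mass was called with all libraries. Without control 1, 1 translation factor and 3 genes of mitochondrial mass were higher, where 10.3% of all genes were.

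Few of the nuclear partners of the mitochondrial subunits were called, in a fit that called 6.49% of all tested genes higher and 4.05% lower. Of 37 nuclear complex I genes, 1 was higher (*Ndufb2*, 0.36, adjusted p = 0.0383) and none lower, while the median log2 fold change was -0.11 and 6 of the 37 lay above 0. Control 1 weighed on this, since the complex I sum was 2863 CPM there and 2276 to 2409 CPM in the other controls. It was 2049 to 2577 CPM in *Mettl3*-CKO retinas, which overlapped the controls. Among the 9 of complex III, *Uqcrfs1*, the iron-sulfur subunit (0.39, adjusted p = 0.0247), and *Uqcrq* (0.37, adjusted p = 0.0332) were higher and *Uqcrc1* was lower (-0.34, adjusted p = 0.0156). Without *Mettl3*-CKO 1 no complex I or complex III gene was called, where 2.78% of all genes were called higher. None of 10 complex IV and 15 complex V genes was called with all libraries. Without control 1, 1 of the complex IV genes was higher, where 10.3% of all genes were. Above 0 lay 4 of the 9 complex III, 6 of the 10 complex IV and 4 of the 15 complex V genes. The complex V sum was likewise highest in control 1, at 3709 CPM against 2962 to 3186 CPM in the other controls. In *Mettl3*-CKO retinas it was 2824 to 3250 CPM. Beside these lists, the progenitor and cell cycle markers were higher and the rod markers lower in *Mettl3*-CKO retinas, as given above, and their part in the nuclear differences was not tested.

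**Figure D5:**
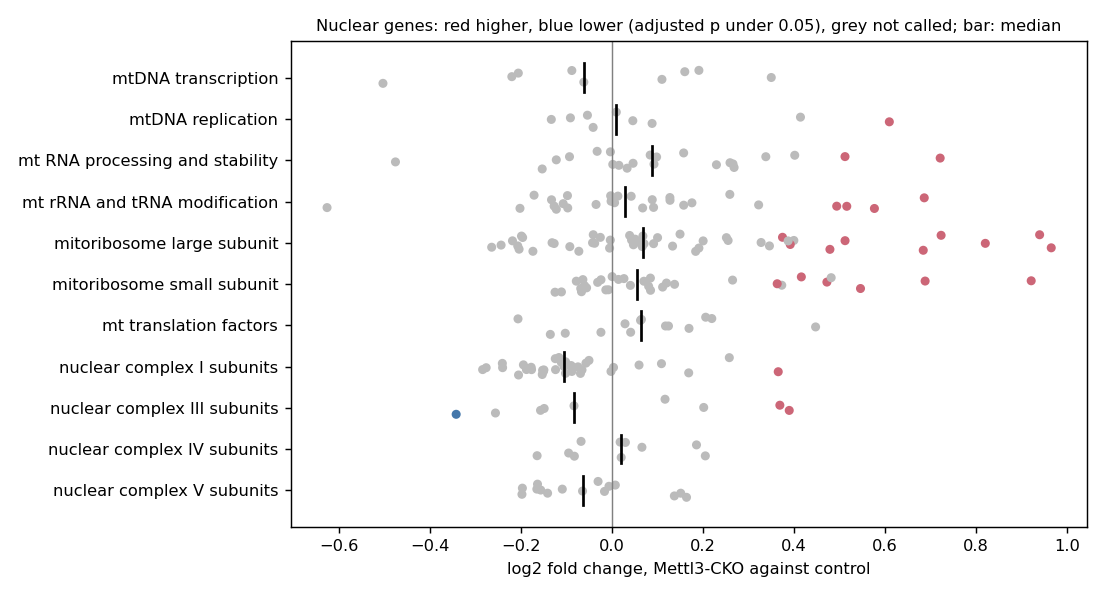
Log2 fold change of *Mettl3*-CKO against control retinas (x axis) of each tested nuclear gene in 7 lists of mitochondrial gene expression and 4 lists of respiratory complex subunits (y axis), with 1 point per gene and a bar at the median of each list. Red points, called higher, number 22 of 162 in the first 7 lists, with *Mrpl43* farthest at 0.97, and the only blue point, called lower, is *Uqcrc1*.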

How the data were processed

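RNA of 4 control and 4 *Mettl3*-CKO retinal samples was sequenced as 150-bp pairs after TRIzol extraction and library preparation with a NEBNext Ultra kit. According to the study's methods, the authors aligned the reads with Hisat2 (genome build GRCm38) and obtained gene counts from featureCounts. The deposited values are raw counts per gene, with the gene's position and length. Strandedness, selection of RNA, the annotation release and the handling of multiply mapped reads are not given in the sources used here. Nothing states that the samples of a group are separate animals, so p-values measure the spread between these samples.

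All genes kept by filterByExpr were fitted in edgeR 4.0.16 (R 4.3.3) with TMM scaling and the quasi-likelihood test, group only, Benjamini-Hochberg adjustment over all tested genes and a threshold of 0.05. The TMM factors were 0.969 to 1.01 and the biological coefficient of variation was 15%. The fit was first tested on simulated counts. DESeq2 1.42.0 was an alternative, as were other scalings, a lower count filter, a replicate block, leaving out each library and adding nuclear copies, the last chosen after seeing the data. CPM of single genes are scaled by TMM, while summed CPM of gene lists and the CPM of 3 counts use the plain library totals. TPM were computed from counts and the deposited gene lengths. Copies were searched with blastn 2.17.0 among GENCODE vM21 transcripts, and copies of at least 95% identity were added to their gene. Shares and ratios have no test. Depth was 16227095 to 20281517 counts per library, and the closest pair of libraries, controls 2 and 3, still differed beyond counting noise (chi-square per gene 5.49).

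All mitochondrial genes were accounted for, with the protein, rRNA and tested tRNA genes named. Of each nuclear list the called members were named, at most the 4 with the largest change, plus *Tfam*, *Polrmt*, *Lrpprc*, *Slirp*, *Ppargc1a*, *Polg* and *Twnk*, and *Rn7sk* from a list of 7 nuclear RNAs without poly(A) tails, 4 of them at 0 in all libraries. The genes, lists and tests were chosen with earlier results of these data known.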

Additional observations from a re-analysis of the deposited data

Results flagged for a closer look

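Of 98 groups of 4 libraries examined (each tested gene and each share in each group), 10 had 1 library set off from the other 3 by more than Dixon's critical value, where chance gives about 4.9. Of these, 5 were values of control 1: *mt-Co1* at 10030 CPM (other controls 6320 to 6612), *mt-Nd1* at 3709 CPM (2612 to 2672), *mt-Cytb* at 3747 CPM (2636 to 2764), the share of all mitochondrial genes in the library at 2.38% (1.69% to 1.76%) and that of the protein genes at 2.25% (1.59% to 1.63%). These values are not independent, since the genes make up most of the shares.

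*Mettl3*-CKO 3 was set off in a pair of neighbouring genes, *mt-Nd3* at 50.8 CPM (other *Mettl3*-CKO 33.0 to 34.0) and *mt-Nd4l* at 14.1 CPM (6.03 to 6.20), both with near-identical nuclear copies. *Mettl3*-CKO 2 was set off in *mt-Th*, at 1.62 CPM (2.76 to 2.93), and in the share of *mt-Nd5* in the protein gene counts, at 9.85% (9.0% to 9.04%). Control 4 was set off in *mt-Tc*, at 19.9 CPM (14.8 to 15.6).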

How the results depend on the processing

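The number of mitochondrial genes called higher was 0 with all libraries and 1 with DESeq2, with all genes of at least 1 count, with the replicate block and without *Mettl3*-CKO 4 (*mt-Te* each time). It was 2 without control 1 (*mt-Nd1* and *mt-Nd2*), so that leaving out 1 library gave 0 to 2 higher and 0 to 0 lower. Of the nuclear genes for mitochondrial gene expression, 22 were higher, 13 to 32 when 1 library was left out (13 without *Mettl3*-CKO 1, the cause not tested), and 0 to 0 were lower. With all genes of at least 1 count, 1 of them was lower (*Cdk5rap1*, which falls outside the rule for named genes). Without 1 library each, the log2 difference of the library share, 0.10 with all, was 0.04 (without *Mettl3*-CKO 3) to 0.22 (without control 1). The rRNA balance, -0.14, was -0.18 to -0.06 (without control 2), and 0.00 with *mt-Rnr1* alone. In percentage points of the protein gene counts, *mt-Nd1* differed by 1.94 to 2.31, *mt-Nd2* by 1.11 to 1.5, *mt-Co1* by -2.85 to -1.66, complex I by 1.89 to 3.11 and complex IV by -2.87 to -1.71. The same-numbered samples did not deviate together in every pair (correlations 0.159, 0.413, -0.109 and 0.288), so the numbers were not taken as a pairing, and not every sample correlated best with its own number. The replicate block gave 1198 genes higher and 660 lower in the whole table against 1168 and 729 without it, and 24 against 22 nuclear mitochondrial genes higher. Depth limits the tRNA genes, *mt-Atp8* and *mt-Nd4l*, and the sequence of the copied genes limits what their counts can show.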
